A study of Drosophila melanogaster with 2 samples.

Results

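The genes for the proteins of the cytosolic ribosome of Drosophila melanogaster were examined for binding of CG12236, a zinc finger protein with a BTB domain. Members were the protein-coding genes whose symbol is RpL or RpS with a number and optional letters, together with RpLP0, RpLP1, RpLP2 and sta. This gave 86 of the 13945 protein-coding genes annotated on X, 2L, 2R, 3L, 3R and 4, of which 48 encode large subunit and 38 small subunit proteins. The symbol sop, also named for this family, matched no gene of the annotation, and RpS2 stands there under its own symbol. RpL37-1, RpL37-2 and the genes named as "like" relatives do not match the symbol rule and are described apart from the members.

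Chromatin immunoprecipitation and sequencing (ChIP-seq) located the tagged protein in whole embryos of the strain CG12236-GFP, which stably expresses the fusion CG12236-eGFP, with the fluorescent protein at the C terminus. Embryos of both sexes were pooled, aged 0 to 24 h, and the precipitation used an antibody against GFP on chromatin sonicated to 200 to 800 bp. The 2 biological replicates, numbered 1 and 3, form 1 group and used the same control alignment, so no conditions can be compared. Whole embryos mix all cell types of the stage, and the sources used here do not name the promoter that drives the tagged copy.

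Each replicate has a list of 30000 regions, and a further 30000 were called on both replicates pooled. These lists run down into background. The optimal list of the authors, thresholded on the irreproducible discovery rate (IDR), a measure of how well replicate ranks match, holds 2426 peaks, and these are exactly the 2426 strongest pooled regions. Each region has a summit, its highest point, and a signal, the authors' own value of unstated scale. Signals are therefore compared within 1 list only, and ranks are used between lists. The read depth behind the lists is unknown. A gene was assigned the strongest summit within 500 bp of any of its annotated transcript starts. Genes are not replicates of a condition, so shares are given with 95% Wilson intervals, which cover counting error only, and they describe the lists and are not tests. No test was made over genes.

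Ribosomal protein genes are among the most strongly transcribed genes of growing cells, and their products must be made in matched amounts to assemble into the large and small subunits. In flies many of them start transcription at a polypyrimidine initiator, known as the TCT motif, in place of the usual initiator. Loss of 1 copy of many of these genes gives the Minute phenotype of slow development and thin bristles. BTB domain zinc finger proteins bind DNA through their fingers and pair with one another through the BTB domain.

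The stretches of 100 bases around a start are shown for 8 members chosen after their values were seen. They are 3 of the strongest large subunit promoters, the duplicated pair with the largest ratio of signals among pairs with a region at both copies, and the 3 members with no pooled region. Each runs from 75 bases before the start to its first 25 transcribed bases on the gene's strand, read from the Release 6 genome, which is the dm6 build of the peak lists. Capitals mark every match to the words counted at the end of the text, on either strand, or on the gene's strand within 10 bp of the start for the TCT words.
RpL7, chr2L:10200929-10201028, plus strand: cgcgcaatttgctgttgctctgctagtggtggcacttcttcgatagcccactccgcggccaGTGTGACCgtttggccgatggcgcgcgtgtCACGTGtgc
RpL13A, chr3R:5624399-5624498, plus strand: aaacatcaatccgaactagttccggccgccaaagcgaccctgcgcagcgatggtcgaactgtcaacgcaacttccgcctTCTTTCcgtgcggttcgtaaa
RpLP0, chr3L:22076017-22076116, plus strand: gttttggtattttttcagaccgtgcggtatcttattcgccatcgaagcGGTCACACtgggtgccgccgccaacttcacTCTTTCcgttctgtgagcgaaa
RpS10b, chrX:19597956-19598055, plus strand: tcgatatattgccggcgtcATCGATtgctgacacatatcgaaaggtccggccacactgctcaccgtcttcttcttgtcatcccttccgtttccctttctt
RpS10a, chr3R:27652685-27652784, plus strand: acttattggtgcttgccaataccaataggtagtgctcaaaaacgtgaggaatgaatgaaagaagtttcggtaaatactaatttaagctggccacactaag
RpL40, chr2L:4227624-4227723, plus strand: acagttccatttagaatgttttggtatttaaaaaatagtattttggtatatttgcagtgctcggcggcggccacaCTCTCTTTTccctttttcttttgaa
RpL10Aa, chr3R:15037291-15037390, plus strand: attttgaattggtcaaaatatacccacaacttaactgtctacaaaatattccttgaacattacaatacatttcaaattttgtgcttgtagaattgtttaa
RpS19b, chr3R:23933506-23933605, minus strand: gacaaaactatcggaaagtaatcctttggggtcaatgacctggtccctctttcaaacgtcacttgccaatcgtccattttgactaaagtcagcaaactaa

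Most ribosomal protein genes carried a reproducible peak of CG12236 at a start, and nearly all carried at least a weaker region. An IDR peak lay at 55 of 86 members (64.0%, interval 53.4 to 73.3%), where 10.2% of all protein-coding genes held one. In the pooled list 83 of 86 members had a region (96.5%, interval 90.2 to 98.8%), against 51.8% of all genes. Proteins of the mitochondrial ribosome are made from a separate set of nuclear genes, and of these 10 of 73 had an IDR peak (13.7%, interval 7.61 to 23.4%) and 59 of 73 a pooled region.

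Each replicate alone gave much the same count. Among its own 2426 strongest regions replicate 1 held 56 members (65.1%), against 10.7% of all genes, and replicate 3 held 51 (59.3%), against 10%. In both replicates at once the count was 46 (53.5%, interval 43.0 to 63.7%), against 7.33% of all genes. A region of any strength in either replicate list lay at 84 members (97.7%), against 61.9% of all genes.

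Members were most frequent at the top of the pooled list. They held 19 of its 500 strongest regions (3.8%), 16 of the next 500 (3.2%) and 20 of the 1426 that complete the IDR list (1.40%). As shares of genes these were 22.1%, 18.6% and 23.3% of members. In the same ranks lay 340, 281 and 753 other genes, or 2.45%, 2.03% and 5.43% of them. Below the IDR cut 12 members lay between ranks 2427 and 5000, 10 between 5001 and 10000 and 6 deeper than that. Other genes numbered 1304, 1655 and 2813 in these ranks. Relative to the number of regions, other genes were thus also fewer deep in the list than at its top. As a share of genes they were most frequent in the deepest ranks, whereas members were least frequent there. No 2 members shared a peak, so the 55 members stand on 55 separate peaks.

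**Figure D1:**
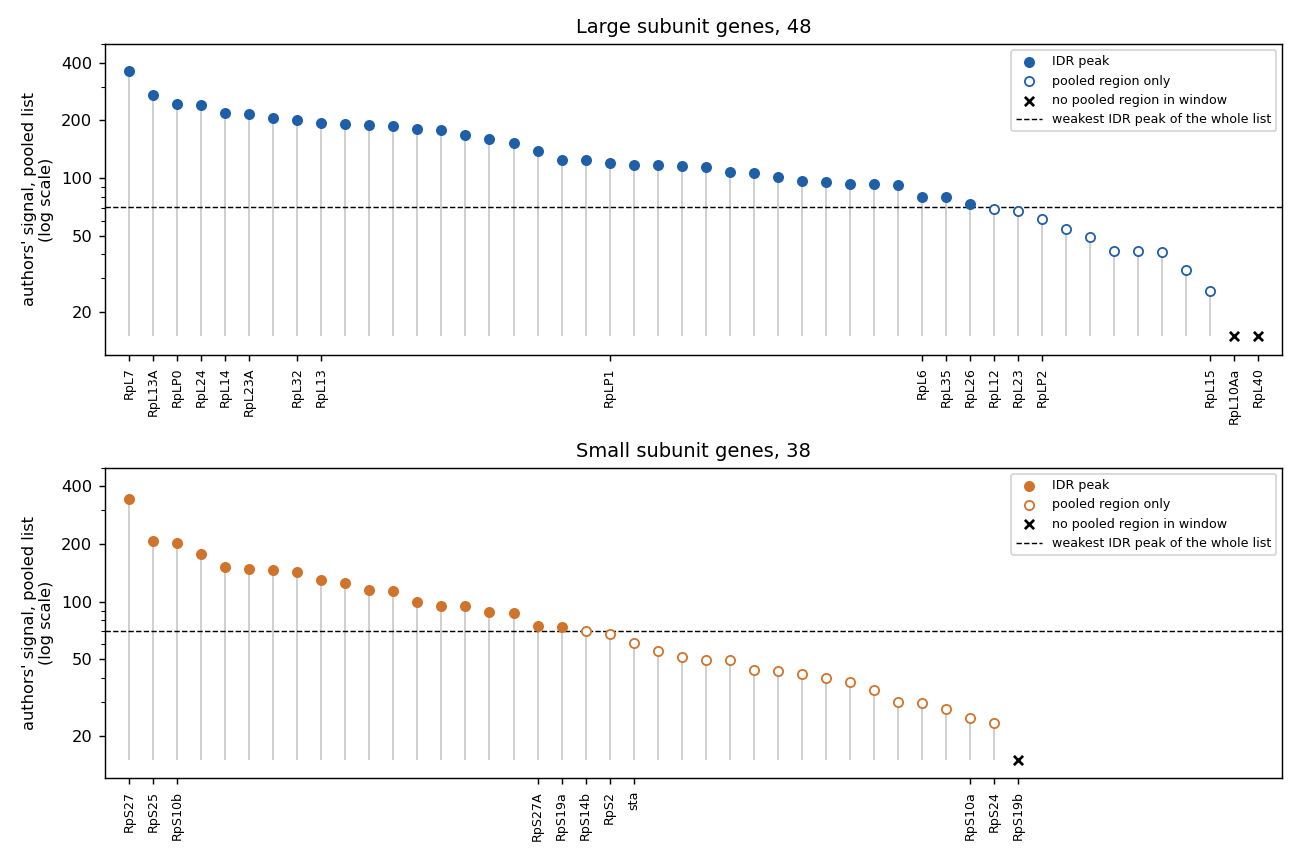
Authors' pooled signal (y, log axis, unit not stated) of the strongest region at each member (x, ordered by signal, some gene symbols shown), with large subunit genes in the upper and small subunit genes in the lower panel. Filled points are IDR peaks, open points other pooled regions, crosses at the foot members with no pooled region, and the dashed line is the weakest IDR peak of the list. Large subunit genes run from 362 at RpL7 to 25.8 at RpL15 and small subunit genes from 342 at RpS27 to 23.2 at RpS24.

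The strongest member was RpL7, whose product is a large subunit protein, at chr2L:10200910-10201179. Its signal was 150 in replicate 1, 206 in replicate 3 and 362 in the pooled list, where it ranked 64. The pooled summit lay 42 bp downstream of the start shown above. The replicate summits lay nearer to another annotated start of the gene, 42 and 45 bp upstream of that one. A start of Ripalpha lies within 500 bp of the same summit.

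RpS27, a small subunit gene at chr3R:25247378-25247665, followed with 149 in replicate 1, 199 in replicate 3 and 342 pooled. It was the only small subunit member among the 7 strongest. RpL13A at chr3R:5624313-5624539 had 112, 158 and 270, and its replicate summits lay 40 and 65 bp upstream of a start. RpLP0, which encodes the base of the ribosomal stalk that recruits translation factors, had 91.0 in replicate 1, 151 in replicate 3 and 244 pooled. Its summits stood between 39 and 56 bp upstream of the start shown above, in both replicates and in the pool.

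The other stalk genes were weaker. RpLP1 had 76.9 in replicate 1, 46.6 in replicate 3 and 120 pooled, an IDR peak. RpLP2, whose protein forms a dimer with that of RpLP1 on the stalk, had 26.3, 31.3 and 61.5 and did not reach the IDR list. The 3 stalk genes therefore span a range of signals although their products work in 1 complex, with RpLP0 above both others in each replicate.

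The remaining strong members belong mostly to the large subunit. RpL24 had 76.3 in replicate 1, 165 in replicate 3 and 241 pooled, with its pooled summit 5 bp downstream of a start. RpL14 had 86.8, 133 and 219, with a start of Nelf-E near the same summit. RpL23A had 94.3, 122 and 215. All 3 were stronger than the median member peak, and all 3 ended in the 500 strongest pooled regions.

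RpL32 and RpL13 were also among the 12 strongest members. The pooled signal was 200 at RpL32, the gene widely used as a reference transcript in fly work, and 193 at RpL13. The RpL13 peak also lies near the start of Dref, which encodes a promoter-binding factor of housekeeping genes. The small subunit added RpS25, with 77.7 in replicate 1, 132 in replicate 3 and 206 pooled, and RpS10b, with 85.9, 121 and 203.

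At the other end of the IDR list stood RpL6 with a pooled signal of 79.8, RpL35 with 79.3, RpS27A with 74.7, RpS19a with 73.8 and RpL26 with 73.2. RpS27A encodes ubiquitin fused to a ribosomal protein. Just past the cut lay RpS14b with 70.3 at rank 2435 and RpL12 with 68.9 at rank 2529. The values on either side of the cut form a continuous series.

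Large subunit genes held IDR peaks more often than small subunit genes in these lists. The count was 36 of 48 (75%, interval 61.2 to 85.1%) for the large and 19 of 38 (50%, interval 34.8 to 65.2%) for the small subunit. The difference was 25 percentage points, with a 95% Newcombe interval of 4.52 to 43.2 points. Replicate 1 alone gave 35 large and 21 small subunit genes, a difference of 17.7 points with an interval of -2.51 to 36.4. Replicate 3 alone gave 33 and 18, a difference of 21.4 points with an interval of 0.533 to 40.1. The 2 classes did not differ in this way in the full pooled list, which held 46 of 48 large and 37 of 38 small subunit genes.

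The gap lay in the rank of the regions. Of the 19 members among the 500 strongest pooled regions 15 were large subunit genes, and of the 6 members deeper than rank 10000 only RpL15 was. Over all members with a pooled region, the median signal was 117 for the large and 73.8 for the small subunit, beside 37.8 for other genes. Among IDR peaks alone the medians were close, at 132 and 125, a ratio of 1.06. Leaving out peaks that lie near the start of another gene turned that ratio to 0.939, so no order of the subunits is read from the strength of IDR peaks.

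Member peaks had a lower coefficient of variation and a lower maximum than other genes in the same list, but their quartiles were no closer together. IDR peaks at members ran from 73.2 to 362 with a median of 125 and quartiles of 97.8 and 188, a coefficient of variation of 42.9%. At the 1374 other genes with an IDR peak the median was 108, with quartiles of 86.2 and 163. Their highest value was 1055 and their coefficient of variation 70.8%. Members were frequent among strong peaks, and the best of them, RpL7, ranked 64. They held 3.8% of the 500 strongest regions, so their absence above that rank is not read as a property of the family. The mitochondrial set reached higher, to 731, although few of its genes had a peak.

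The replicates ranked the members similarly. A region in both replicate lists was found at 79 members, in replicate 1 alone at 2, in replicate 3 alone at 3 and in neither at 2. Across the 79 members signal had a Spearman rho of 0.788 between replicates, and its log2 values had a Pearson r of 0.79. For 5445 other genes the values were 0.647 and 0.76. Among genes with an IDR peak the order was the opposite, with 0.584 and 0.59 at members and 0.627 and 0.73 at other genes. These describe genes within 1 pair of replicates that share a control, and genes are not independent replicates.

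Summits at members also recurred in place. The median distance between the replicate 1 and replicate 3 summit was 25 bp at members and 83 bp at other genes with a region in both. Among IDR peaks it was 24 bp at members and 30 bp at other genes. Members ranked better in replicate 1 than in replicate 3 at 56 of 79 genes (70.9%), where other genes did so at 48.8%.

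**Figure D2:**
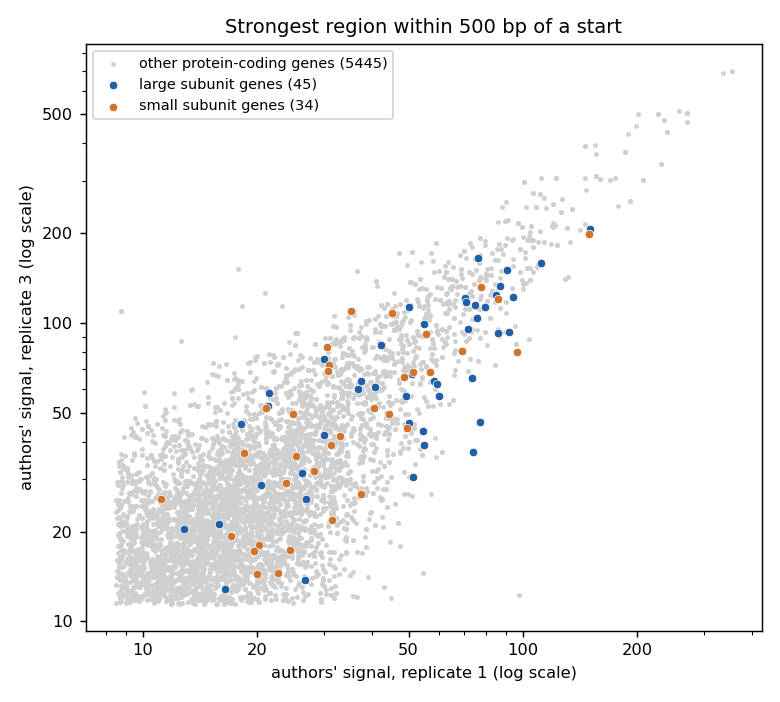
Authors' signal in replicate 1 (x, log axis) against replicate 3 (y, log axis) for the 79 members with a region in both lists, coloured by subunit, over 5445 other genes in grey, each axis on its own list's scale. RpL7 and RpS27 stand at the upper right in both replicates, and the scatter widens towards weak members.

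A few members moved far between the replicates. RpL5, whose protein carries the 5S RNA into the large subunit, ranked 2954 in replicate 1 and 21805 in replicate 3. RpL10 ranked 8457 and 24550, and RpS13 ranked 4186 and 19694, so all 3 were stronger in replicate 1 by rank. In the other direction RpS9 ranked 18997 in replicate 1 and 6243 in replicate 3, RpL12 ranked 6821 and 2292, and RpL21 ranked 14459 and 10126. None of these 6 had an IDR peak, and each is reported as differing between replicates.

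Member summits sat close to the start. The median position of the 55 IDR summits was 25 bp upstream of the nearest start, with quartiles at -50 and -1.5 bp and extremes at -193 and 42 bp. They lay upstream at 41 of 55 members (74.5%, interval 61.7 to 84.2%) and within 25 bp of a start at 25 (45.5%). At other genes with an IDR peak the median was -127.5 bp, 84.9% lay upstream and 6.62% lay within 25 bp. Large and small subunit genes were alike, with medians of -31 and -25 bp.

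Within 100 bp of a start lay the summits of 52 of 55 members (94.5%, interval 85.1 to 98.1%). The same held for 458 of 1374 other genes with an IDR peak (33.3%, interval 30.9 to 35.9%). Other genes that share a peak are each counted, among them neighbours of members, so that interval treats shared peaks as separate. The distance of 100 bp was chosen after the data were seen. Among genes with 1 annotated start the shares were 87.5% at members and 30.8% at other genes, and among peaks near no other gene they were 96.4% and 27.4%. In the mitochondrial set 2 of 10 IDR summits lay as close. Members without an IDR peak kept the position in most cases, with 22 of 28 pooled summits within 100 bp (78.6%), against 38.0% of other genes without an IDR peak.

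**Figure D3:**
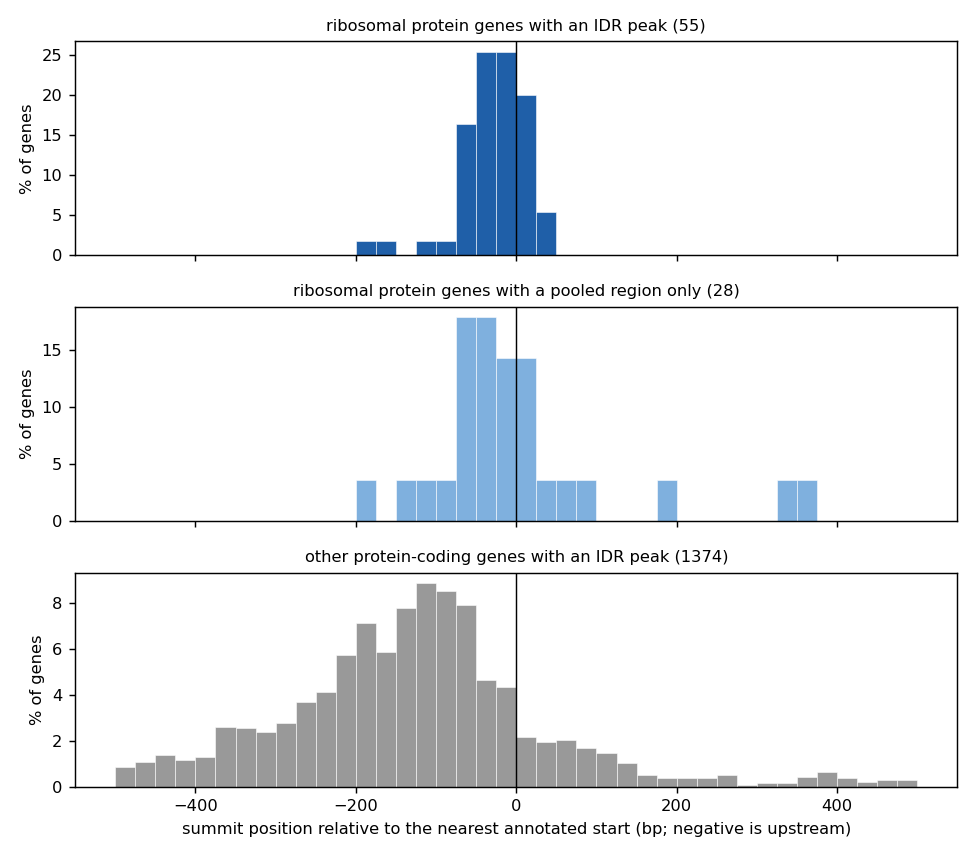
Share of summits (y, percent of genes) by position relative to the nearest transcript start (x, bp, negative upstream) for the 55 members with an IDR peak (top), the 28 with a pooled region alone (middle) and 1374 other genes with an IDR peak (bottom). Summits are IDR summits in the top and bottom panels and pooled summits in the middle panel. IDR summits of members pile up around a median of -25 bp, whereas those of other genes spread upstream around -127.5 bp.

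The 3 member IDR summits beyond 100 bp were all upstream. RpL6 had its summit at -193 bp and RpS20 at -160 bp. For RpS20 the summit stood at -137 bp in replicate 1 and -161 bp in replicate 3. Both replicates thus placed it away from the start. For RpL6 it stood at -237 bp in replicate 1 and -41 bp in replicate 3. The farthest downstream were RpL7A at 26 bp, RpL30 at 28 bp and RpL7 at 42 bp.

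Some member peaks were narrower than the standard region. Regions of the pooled list have a width of 424 bp unless trimmed, and 22 of 55 member IDR peaks (40%) were below it, against 22.3% at other genes. The replicates alone gave no such gap, with 7.14% of members and 6.64% of other genes in the top 2426 regions of replicate 1, and 15.7% and 16.0% in those of replicate 3. Among IDR peaks near no other gene the shares were 28.6% and 22.2%. The narrowest, at RpS21, spanned 111 bp. All 28 pooled regions of members outside the IDR list had the full width, as did all 5772 at other genes without an IDR peak.

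Of the 31 members without an IDR peak, 28 held a pooled region. Their signals ran from 23.2 to 70.3 with a median of 42.8, beside 32.1 for other genes in the same position. This group holds 18 small and 10 large subunit genes. In rank order after RpS14b and RpL12 came RpS2 with 67.6, RpL23 with 67.3, RpLP2, and sta with 61.3.

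RpS2 sat exactly on a start in the pooled list, and its replicate summits lay 17 and 3 bp downstream. Its signal was 37.4 in replicate 1 and 26.7 in replicate 3. The protein of sta, known in other species as the laminin receptor precursor, is a component of the small subunit, and sta had 33.0 in replicate 1 and 41.8 in replicate 3. RpS28a with 55.5, RpL38 with 54.4, RpS3 with 51.6, RpS7 with 49.4, RpS26 with 49.4 and RpL39 with 49.1 completed the 12 members between ranks 2427 and 5000. All 12 had a region in both replicates.

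The next 10 members fell between pooled signals of 44.0 at RpS6, whose protein is a classic target of growth signalling, and 33.0 at RpL10. Among those between these values were RpL5, RpL21, RpL10Ab, RpS9, RpS15Ab and RpS15. Small subunit genes made up 6 of the 10. All 10 had a region in each replicate list.

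The 6 weakest were RpS13 with 30.0, RpS30 with 29.5, RpS5b with 27.7, RpL15 with 25.8, RpS10a with 24.6 and RpS24 with 23.2. RpS5b, RpL15 and RpS10a had a region in replicate 3 and not in replicate 1, and RpS24 in replicate 1 and not in replicate 3. The strongest regions of RpS30 and RpS24 lay 342 and 365 bp downstream, farther from the start than at any other member. RpS30 also had a weaker pooled region, with a signal of 27.5, whose summit lay 30 bp from a start. These values lie near the pooled median of 25.4 over all 30000 regions.

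RpL10Aa, RpL40 and RpS19b had no pooled region within 500 bp, and their starts are among the sequences shown. RpL40, which encodes a ubiquitin fusion like RpS27A, had a region in replicate 1 alone, with a signal of 9.86 at rank 23576 and 103 bp downstream. RpL10Aa had no region in any list, and the nearest IDR peak lay 50441 bp away. The nearest pooled region to RpS19b was an IDR peak 916 bp away with a signal of 141, outside the window, and replicate 1 held a region 644 bp away with a signal of 18.2. A pooled region of signal 17.0 lay 818 bp from RpL40.

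In 2 of these 3 genes, RpL10Aa and RpS19b, the annotation holds a second copy, and duplicated pairs as a whole often differed. The rule took in 8 pairs. In 6 of them 1 copy had an IDR peak and the other did not, in RpL34a and RpL34b both had one, and in RpL10Aa and RpL10Ab neither did. Counting genes, 8 of 16 members of pairs had an IDR peak (50%, interval 28.0 to 72.0%), beside 47 of 70 members without such a copy (67.1%, interval 55.5 to 77.0%). Within the small subunit the shares were equal, at 6 of 12 members of pairs and 13 of 26 other members (50% each), and 34 of 44 large subunit members without such a copy had a peak (77.3%).

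Among the 6 pairs with a pooled region at both copies, RpS10b and RpS10a had the largest ratio. RpS10b had 85.9 in replicate 1, 121 in replicate 3 and 203 pooled, whereas RpS10a had no region in replicate 1, 22.6 in replicate 3 and 24.6 pooled, an 8.25-fold difference within the pooled list. RpS5a, the widely expressed copy, had 30.9, 72.4 and 99.2, and RpS5b, known for its expression in ovaries, had no region in replicate 1, 21.4 in replicate 3 and 27.7 pooled. That ratio was 3.58. In both pairs the same copy led in both replicates.

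RpS15Aa exceeded RpS15Ab by 2.96-fold, with pooled signals of 114 and 38.3. RpS28b exceeded RpS28a by 2.74-fold, with 152 and 55.5. RpS19a had 73.8 pooled, where RpS19b, known as a germline copy, had none, and RpL10Ab had 41.2, where RpL10Aa had none. RpL34b exceeded RpL34a by 1.53-fold, with 191 and 125.

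RpS14a and RpS14b are neighbours on X, and their order changed with the replicate. RpS14a had 49.6 in replicate 1, 44.3 in replicate 3 and 95.1 pooled, and RpS14b had 24.8, 49.4 and 70.3. RpS14a was stronger in replicate 1 and RpS14b in replicate 3, so these 2 are not ordered. The copies encode near-identical proteins, and where copies also share DNA sequence, reads could be split between them, which was not tested.

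**Figure D4:**
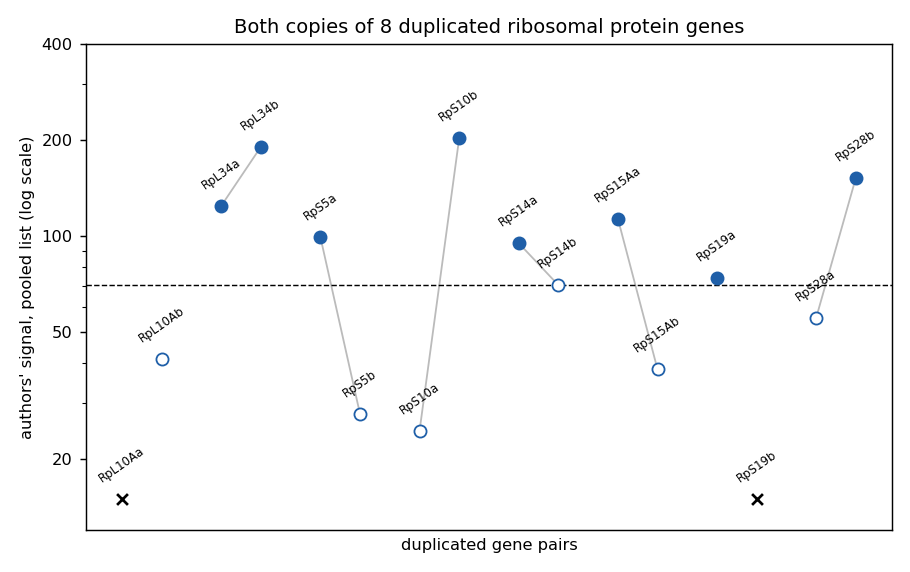
Authors' pooled signal (y, log axis) of both copies of the 8 duplicated pairs, joined by a line where both have a region. Filled points are IDR peaks, open points other pooled regions, crosses at the foot copies with no pooled region, and the dashed line is the weakest IDR peak of the list. RpS10a and RpS10b show the steepest line, and RpS14a with RpS14b the flattest.

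Host genes of small nucleolar RNAs, which guide modification of ribosomal RNA, are frequent in the family. Of the 29 members whose span holds an annotated small nucleolar RNA on the same strand, 20 had an IDR peak (69.0%), and of the other 57 members 35 did (61.4%). IDR peaks lay at 11 of 14 members on X, 11 of 17 on 2L, 9 of 18 on 2R, 10 of 14 on 3L and 13 of 22 on 3R, and at RpS3A, the member on 4. Among other genes the shares on these arms were 8.34%, 10.2%, 9.60%, 10.4%, 10.7% and 3.80%. Genes with several starts have more positions at which a summit can be assigned. IDR peaks lay at 31 of 44 members with several starts (70.5%) and at 24 of 42 with 1 start (57.1%), beside 18.0% and 7.03% of other genes. When 1 start per gene was used, 55 members still had an IDR peak, whereas other genes with one fell from 1374 to 1181. Why the member shares differ was not tested.

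Many member peaks could belong to a neighbour as well. Within 500 bp of 27 of the 55 summits lay a start of another protein-coding gene (49.1%). This also held for the summits of 758 of 1374 other genes with an IDR peak (55.2%). The latter are counts of genes, so a peak shared by other genes enters once for each of them, whereas the 55 member peaks are separate. The 2 shares are therefore not ordered. The neighbours include eIF1 beside RpL28, a start codon selection factor, Nelf-E beside RpL14, a subunit of a pausing factor, and Dref beside RpL13. The remaining 28 members had a peak to themselves, among them RpS10b. Which of 2 neighbouring genes a peak serves cannot be told apart by position.

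Short words known from fly promoters, and CACTGTGC, a word of the series itself, were counted on both strands. The window ran from 250 bp before to 50 bp after the 5′ end of each gene. A match is a description of the letters and not a bound site. TATCGATA, the long form of the DNA replication-related element bound by Dref, was in 30.9% of members with an IDR peak, 25.8% of members without one, 13.0% of other genes with an IDR peak and 9.36% of all genes. Its core ATCGAT, which every TATCGATA contains, was in 40%, 32.3%, 27.9% and 23.3%. Within 100 bp of the pooled summit TATCGATA was in 27.3% of members with an IDR peak, 14.3% of those with a weaker region and 7.39% of all genes with a region. For ATCGAT these shares were 34.5%, 25% and 17.6%.

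GGTCACAC, the core of the motif bound by the factor M1BP, was in 18.2% of members with an IDR peak (interval 10.2 to 30.3%). Among members without one it was in 12.9% (interval 5.13 to 28.9%), and these intervals overlap. The word was in 9.75% of other genes with an IDR peak and 7.70% of all genes. It stands in capitals in the RpLP0 stretch, at a start other than the 5′ end used for the count, and on the other strand of the RpL7 stretch as GTGTGACC. CACGTG, the E-box bound by Myc with Max, was in 6 members with an IDR peak (10.9%) and 0 of 31 without (upper Wilson limit 11.0%). It was in 5.46% of other genes with an IDR peak and 4.20% of all genes. The 6 are RpL7, RpL24, RpL34b, RpL11, RpL29 and RpL6, all of the large subunit. That pattern holds for this window alone. Within 100 bp of the pooled summit the word was at 9 members, among them RpS4, RpS28b and RpL5, which has no IDR peak, and not at RpL34b or RpL6.

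A further E-box, the GAGA element and the TATA box were no more frequent at members with an IDR peak than at all genes. The E-box CAGCTG was in 7.27% of them, beside 344 of 1374 other genes with an IDR peak and 17.7% of all genes. GAGAG, the core of the GAGA element, was in 23.6% of them, 6.45% of members without a peak, 33.1% of other genes with an IDR peak and 29.7% of all genes. TATAAA, the TATA box, was in 45.5%, 61.3%, 44.0% and 45.8%. CACTGTGC was in 1 of the 55, RpL23A, beside 3.78% of other genes with an IDR peak and 1.49% of all genes. This word comes from the series itself, so its share at other genes with an IDR peak is not independent of these data.

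The TCT motif was sought as the word CTTTT, the word CTTTC or the word TCTTT, on the gene's strand within 10 bp of any start. The 3 words can overlap each other. At least 1 of them was found at 65 of 86 members (75.6%), against 9.09% of all genes. The share was 80% in members with an IDR peak and 67.7% in members without, so most members of either kind carry it. RpL13A and RpLP0 show it as TCTTTC, and RpL40, with no pooled region, shows it as TCTTTT. At the 5′ end of the gene alone it was in 45.5% and 41.9%, against 6.35% of all genes.

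The word also occurs outside the family. Of 1203 other genes with a TCT word 170 had an IDR peak (14.1%, interval 12.3 to 16.2%), and of those without it 9.51% did. Their IDR summits lay within 100 bp of a start in 34.1% of genes with the word and 33.2% without. Members lacking the word had an IDR peak in 11 of 21 cases (52.4%, interval 32.4 to 71.7%). Members with it had one in 44 of 65 cases (67.7%, interval 55.6 to 77.8%). Within 100 bp lay 10 of the 11 summits without the word and 42 of the 44 with it. Both a share of peaks above that of other genes and closeness to the start were therefore seen in members without these letters. Whether the word contributes to either was not tested.

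**Figure D5:**
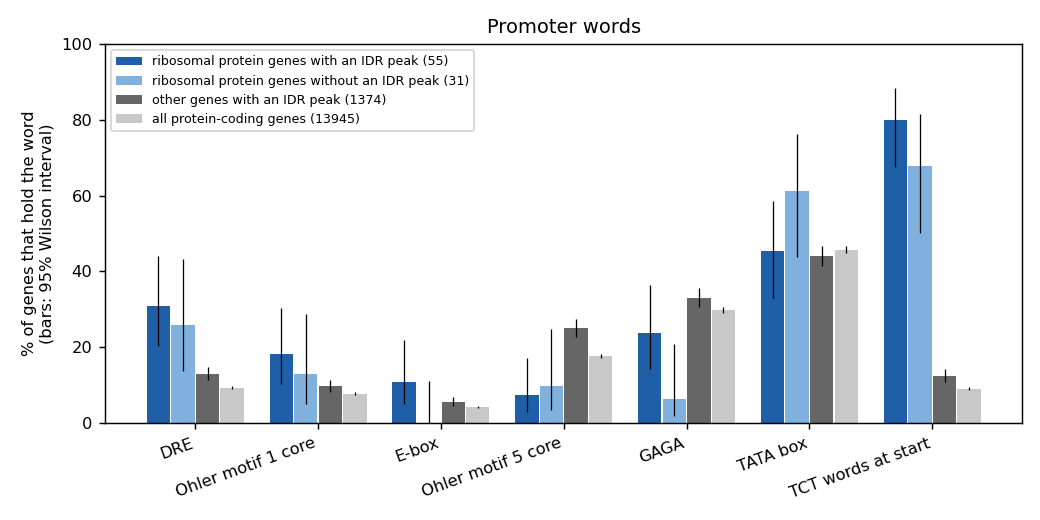
Share of genes (percent) whose promoter window, or start for the TCT words, holds each word (x), with 95% Wilson intervals as error bars, for members with an IDR peak, members without one, other genes with an IDR peak and all genes. The TCT words separate both member groups, at 80% and 67.7%, from the others at 12.4% and 9.09%.

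Genes that work beside the ribosome gave mixed counts. Of 10 elongation and ribosome-associated genes 6 had an IDR peak. These were eEF1gamma with 269, Nacalpha with 193, eEF2 with 125, Rack1 with 118, eEF5 with 101 and eEF1alpha1 with 98.7, all with summits within 47 bp of a start. Of 20 genes for ribosome biogenesis 3 had one, namely Ns2, Fib and NHP2, so this list lay nearer to the 10.2% of all genes. RpL37-1 had an IDR peak with 87.1 and RpL37-2 no pooled region, and of 5 "like" relatives RpLP0-like had one, with 114.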

How the data were processed

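The authors deposited region lists on dm6 for each replicate, for both pooled, and by IDR. Per the labels, both replicates used the same control. The deposited lists give a signal per region, a −log10 q value and the summit's offset in bp from the region start. The −log10 q value of the authors was 3.82 at all 2426 IDR peaks and was not used to rank. The sources used here do not give the aligner, peak caller, IDR threshold, signal scale or depth. The dm3 lists were not used here.

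Starts came from Ensembl release 115 (BDGP6.54), sequences from the Release 6 genome. Where a gene had several summits within 500 bp of a start, the strongest was taken. The leave-one-out settings used the 2426 strongest regions of the other replicate. Replicate numbers pair nothing, since there is 1 group. No test over genes was made. The assignment of summits to genes and their unsigned distance from a start were tested on simulated lists. The direction of a position, the word counts and the neighbour counts were not tested in this way.

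Members and lists were chosen with earlier results of these data known. Named members were the 12 strongest, the 5 weakest IDR peaks, all without an IDR peak, duplicated pairs, the stalk genes and sta, and 3 extremes each way in position and in replicate rank. RpS21, RpS3A, the genes holding CACGTG, the neighbours and the printed sequences were picked with values in view. Some members counted in the totals are not reported here by name. Scripts ran with pandas 2.3.3, numpy 2.4.6, matplotlib 3.10.9 and scipy 1.17.1 under Python 3.11.15.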

Additional observations from a re-analysis of the deposited data

How the results depend on the processing

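Start windows of 200 and 1000 bp, 1 start per gene and the summit nearest to a start gave 55 to 57 members with an IDR peak, a subunit difference of 19.7 to 25 points, a median position of -25 to -20 bp and 27 or 28 members with a pooled region alone, and left the signal results as they were. Leaving out members whose peak lies near another gene left 28 of 52 members with an IDR peak, moved the median position to -15 bp, and turned the ratio of large to small subunit median signal from 1.06 to 0.939. Leaving out a replicate gave a median signal of 55.3 to 80.2, each on that replicate's own scale, and a ratio of 1.21 to 1.56. The stronger part of the IDR list raised the median signal to 159. It left 44 members outside the list with a pooled region, and the 5000 strongest regions left 16, since the cut itself moved. The large minus small subunit difference stayed between 17.0 and 25 points under all alternatives. The share of summits within 100 bp of a start, with alternatives chosen after seeing the data, stayed between 85.5% and 96.4%. With 2 replicates, 1 control and unknown depth, weak regions cannot be told from background. No paired analysis was possible because there is 1 group.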
